A study of Mus musculus with 12 samples.

Results

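The 32 genes described here carry glucose to lactate, set the pace of that route, or respond to low oxygen. They were chosen by gene name in 6 roles: glucose entry (Slc2a1, Slc2a3), upper glycolysis (Hk1, Hk2, Gpi1, Pfkl, Pfkm, Pfkp, Aldoa, Aldoc, Tpi1), lower glycolysis (Gapdh, Pgk1, Pgam1, Pgam2, Eno1, Eno2, Eno3, Pkm), lactate (Ldha, Ldhb, Slc16a1, Slc16a3), switches (Pdk1, Pdk2, Pfkfb3, Pfkfb4) and hypoxia targets (Bnip3, P4ha1, Egln3, Ankrd37, Vegfa). The names matched 33 of 55471 gene entries, because Aldoa stands for 2 entries, and all 33 passed the filter on low values in every comparison. Poly-A RNA was sequenced from mouse J1 embryonic stem cells (ESCs; strain 129S4/SvJae), either wild type (WT) or carrying a CRISPR/Cas9 knockout of Snap29 (KO), a gene for a SNARE protein of membrane fusion. The KO cells were 1 clone, KO-2, with an insertion of 1 bp in exon 2. The study chose this clone for sequencing because it showed more differences from WT. It names KO-2 for the ESC libraries and gives no clone for day 14. Day 0 cells were grown on gelatin without feeders, in medium with serum and LIF. For day 14, cells spent 3 days as hanging drops without LIF and then 11 days on plates. Each of the 4 groups had 3 libraries. The study describes them as biological replicates, and the p-values reflect the spread among these libraries.

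Glycolysis splits glucose into pyruvate in a chain of cytosolic enzymes, and lactate dehydrogenase turns pyruvate into lactate, which leaves the cell through monocarboxylate transporters. Most steps have several related genes, one of which often prevails in a given tissue. Hypoxia-inducible factors (HIFs) raise the transcription of many of these genes when oxygen is low, while prolyl hydroxylases such as Egln3 mark HIF proteins for degradation when oxygen is present. Mouse ESCs are known for high glycolysis, which commonly gives way to more mitochondrial respiration as the cells differentiate.

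Each library held 16638790 to 19226488 fragments assigned to genes, and the members took 1.39 to 1.46% of them in WT and 1.27 to 1.37% in KO before differentiation. At day 14 these shares were 1.19 to 1.36% and 1.06 to 1.18%. Snap29 itself ranged from 5.51 to 6.59 FPKM in WT against 0.415 to 0.657 in KO at day 0, and from 8.09 to 9.88 against 1.87 to 2.31 at day 14. Atrx, which encodes a chromatin remodeller, ranged from 11.9 to 13.3 FPKM in WT against 0.132 to 0.178 in KO at day 0. Loss of Snap29 and other traits of the clone cannot be told apart in the KO comparisons. The summed FPKM of 8 ESC markers ranged from 3399 to 3560 in WT against 3741 to 4262 in KO at day 0. By day 14 it was still 2153 to 2936 in WT against 3046 to 3556 in KO, although 7 of the 8 markers fell in each genotype. The exception, Dppa5a, is the most abundant of them, and it was called higher in KO and not called in WT. WT replicate 3 stood apart at day 14: its Atrx was at 6.24 FPKM, against 12.6 in each of the others, and without it the genes called between KO and WT went from 298 to 1804 higher and from 181 to 1025 lower. Leaving out any other day 14 library instead cut the calls, to 16 to 52 higher and 28 to 42 lower. Values without WT replicate 3 are given beside the members whose call it changes.

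In undifferentiated cells, members were called in both directions between the KO line and WT. Related genes of a step were called in opposite directions only for Slc2a1 and Slc2a3 and for Pfkp and Pfkl, and the calls of Slc2a1 and Pfkl were fragile. Pfkp, Hk1, Ankrd37, Pdk1, Vegfa, Slc2a1 and Hk2 were higher in KO, whereas Gapdh, Egln3, Slc2a3, Eno1, Bnip3 and Pfkl were lower. The log2 differences ran from 0.14 (Hk2) to 0.91 (Pfkp) among the higher members and from -0.24 (Pfkl) to -3.35 (Gapdh) among the lower. Levels are FPKM, which scales fragments to gene length and library size, and differences are KO minus WT on log2(FPKM + 0.1), tested with limma at an adjusted p under 0.05 over all 19238 genes tested. Thus 7 of 33 entries were higher and 6 were lower, beside 11% of all genes higher and 10.4% lower. The median difference was 0.02 over the members and -0.00 over all genes tested. The calls of Hk1, Pfkp, Gapdh and Egln3 held in every alternative fit at that threshold. Those of Slc2a3 and Eno1 were lost on the TPM scale, and those of Pdk1 and Vegfa in a fit of all 4 groups.

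**Figure D1:**
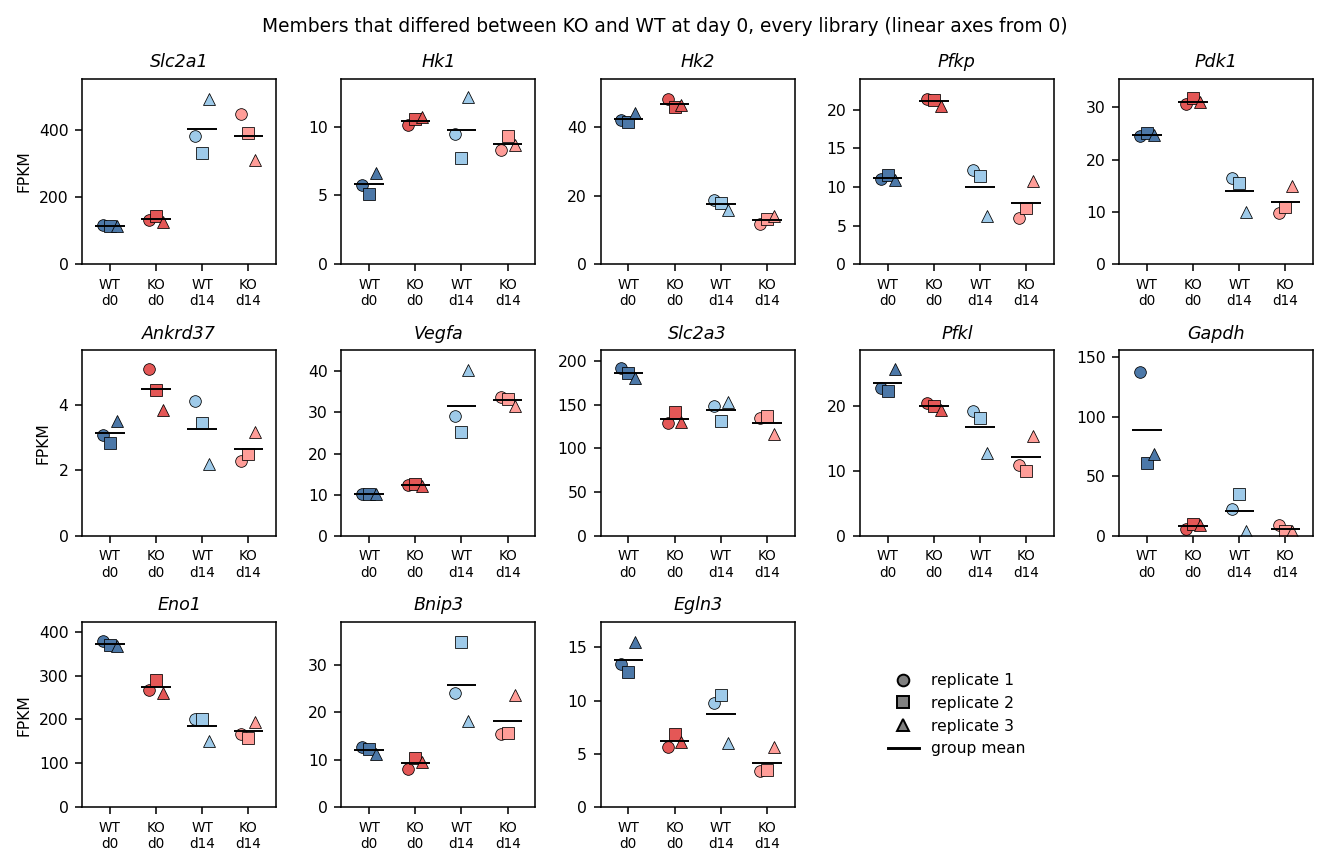
FPKM (y axis, linear from 0) of the 13 members called between KO and WT at day 0, in every library of the 4 groups (x axis). Symbols mark replicate numbers and the line marks the mean of 3. At day 0 the KO and WT points of each panel are apart, as for Pfkp at 20.4 to 21.4 against 10.9 to 11.6, while at day 14 WT replicate 3 often lies near the KO points.

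Among the glucose transporters, Slc2a3 (GLUT3, a high-affinity carrier) was at 193, 186 and 180.4 FPKM in WT and 129.6, 142 and 129.7 in KO. Every KO library lay below every WT library, and the log2 difference was -0.48 ± 0.05 (SE, n = 3 against 3, adjusted p = 0.00121). Slc2a1 (GLUT1, the widespread basal carrier) was at 117, 112 and 114 FPKM in WT and 131, 142 and 126 in KO. The KO libraries were all higher, by 0.22 ± 0.05 (adjusted p = 0.0313). This smaller call was lost without KO replicate 1 or any 1 of the WT libraries (adjusted p = 0.0301 to 0.104 over the 6 fits with 1 library left out). Slc2a1 took 38.0% ± 0.5 (SD, n = 3) of the summed FPKM of both carriers in WT and 49.9% ± 0.5 in KO, with no overlap between the libraries.

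The hexokinases and phosphofructokinases included the members that were higher in KO by the largest amounts. Hk1, the hexokinase of most adult tissues (chr10:62268855-62379908 in mm10), was at 5.75, 5.06 and 6.61 FPKM in WT and 10.1, 10.5 and 10.7 in KO. Its groups did not overlap, and the difference was 0.84 ± 0.10 (SE, adjusted p = 0.00155). Hk2, the inducible hexokinase and by far the more abundant here, was at 41.9, 41.3 and 43.9 FPKM in WT and 48.2, 45.9 and 46.3 in KO. Its difference was only 0.14 ± 0.04 (adjusted p = 0.0475) and did not hold without any 1 of the 6 libraries (adjusted p = 0.05 to 0.152). Pfkp, the platelet-type phosphofructokinase (chr13:6579768-6648777), was at 11.0, 11.6 and 10.9 FPKM in WT and 21.4, 21.3 and 20.4 in KO. These groups lay far apart, with a difference of 0.91 ± 0.04 (adjusted p = 6.74e-05). Pfkl, the liver type, was at 22.8, 22.4 and 25.7 FPKM in WT and 20.6, 19.99 and 19.4 in KO, lower in every KO library. That difference of -0.24 ± 0.06 (adjusted p = 0.0353) was lost without any 1 of the KO libraries or WT replicate 1 or 3 (adjusted p = 0.0481 to 0.101). Pfkm, the muscle type, was at 13.86 ± 0.93 (SD, n = 3) and 14.03 ± 0.18 FPKM and was not called. The exons of Pfkp share 748 bases with Pitrm1 on the opposite strand, whose mean was 31.0 FPKM in WT and 33.8 in KO. Whether the counting used strand is not given in the sources used here, so part of the Pfkp level could be Pitrm1 reads.

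Downstream, Eno1 (enolase 1) was at 379, 369.9 and 366 FPKM in WT and 268, 291 and 260.3 in KO. All KO libraries were lower, by -0.45 ± 0.06 on the log2 scale (SE, adjusted p = 0.00223). Eno1b, a gene 99.5% identical to Eno1 over the compared transcript, was also lower, at a mean of 325 FPKM in KO against 454 in WT (-0.48, adjusted p = 0.0024). Reads of the pair may be split between them, and Eno1 summed with its 3 near-identical copies gave a log2 ratio of -0.43, for which no test was run. The remaining enzymes of lower glycolysis apart from Gapdh were not called: Pgk1, Pgam1, Pgam2, Eno2, Eno3 and Pkm had differences between -0.14 and 0.31. Pkm, the pyruvate kinase gene and the most abundant member, was at 624 ± 19 FPKM (SD, n = 3) in WT and 568 ± 44 in KO.

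Gapdh, a housekeeping gene that the study used as its qPCR reference, was the most uneven member. Its own entry (chr6:125161715-125166467) was at 137.6, 61.6 and 68.5 FPKM in WT and 5.90, 9.60 and 9.43 in KO at day 0. At day 14 it was at 22.5, 35.5 and 3.81 FPKM in WT and 9.11, 4.05 and 4.40 in KO. The WT libraries of each day were far apart among themselves, and the groups overlapped at day 14 but not at day 0. The day 0 difference was -3.35 ± 0.33 (SE, adjusted p = 0.000864). Gapdh has 77 near-identical copies in the mouse annotation (at least 95% identity over at least 300 bases), 75 of which had fragments. The copies summed to 86.8, 83.3 and 81.0 CPM (fragments scaled to the library's assigned total) in WT and 102, 96.3 and 83.1 in KO at day 0, against 571, 258 and 285 in WT and 25.4, 39.6 and 40.7 in KO for Gapdh itself. Added together, they gave 658, 342 and 366 CPM in WT and 128, 136 and 124 in KO, a log2 ratio of -1.82 with no test run. Since reads that match several places can be dropped or reassigned, these values are fragments kept for the entry rather than a level of Gapdh mRNA.

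None of the 4 lactate genes was called at day 0. Ldha, the muscle-type subunit of lactate dehydrogenase, was at 438 ± 19 FPKM (SD, n = 3) in WT and 408 ± 37 in KO, and Ldhb, the heart-type subunit, at 179 ± 6 and 199 ± 16. The lactate transporter Slc16a1 (MCT1) was at 40.5 FPKM in both groups, with a difference of -0.00 and a 95% interval of -0.09 to 0.08. Of the switches, Pdk1, a kinase that inhibits pyruvate dehydrogenase and so keeps pyruvate out of the mitochondria, was at 24.6, 25.1 and 24.8 FPKM in WT and 30.6, 31.7 and 31.1 in KO. The groups did not overlap, and the difference was 0.33 ± 0.03 (SE, adjusted p = 0.00117). Pfkfb4, a bifunctional enzyme that makes and removes the activator of phosphofructokinase, was at 0.644, 0.511 and 0.546 FPKM in WT and 1.20, 0.846 and 0.697 in KO. Its KO libraries were all higher, but the difference of 0.58 ± 0.22 did not pass (adjusted p = 0.115).

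The hypoxia targets moved in opposite directions at day 0. Egln3 (chr12:54178981-54203860) was at 13.4, 12.7 and 15.5 FPKM in WT and 5.67, 6.86 and 6.15 in KO, so that no KO library reached the lowest WT library. The difference of -1.14 ± 0.10 (SE, adjusted p = 0.000505) held without any 1 library. Bnip3, a mitophagy receptor, was at 12.6, 12.3 and 11.2 FPKM in WT and 8.15, 10.4 and 9.45 in KO. It was lower by -0.37 ± 0.10 (adjusted p = 0.0379), a call lost without KO replicate 1 or 3 or any 1 of the WT libraries (adjusted p = 0.0235 to 0.11). Vegfa, a growth factor for blood vessels, was at 10.1, 10.1 and 10.2 FPKM in WT and 12.4, 12.6 and 12.1 in KO. Its groups were tight and apart, at a difference of 0.29 ± 0.04 (adjusted p = 0.0035). Ankrd37, an ankyrin-repeat gene, was at 3.10, 2.82 and 3.53 FPKM in WT and 5.11, 4.47 and 3.86 in KO. The difference of 0.49 ± 0.13 (adjusted p = 0.0346) was lost when replicate 1 or 2 of either genotype was left out (adjusted p = 0.0289 to 0.103). P4ha1, a collagen prolyl hydroxylase subunit, was at 7.32 ± 0.37 (SD, n = 3) and 7.30 ± 0.46 FPKM, a difference of -0.00 with a 95% interval of -0.16 to 0.15.

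Some lists of genes that surround these members were also mixed at day 0, while others had calls in 1 direction only. Of 10 hypoxia regulators, 1 was higher and 4 were lower. Egln1, the main HIF prolyl hydroxylase, was higher by 0.40 (12.04 FPKM in KO against 9.10 in WT, adjusted p = 0.0052), and its relative Egln2 lower by -0.31 (15.4 FPKM against 19.1, adjusted p = 0.0075). Cited2, a CBP/p300-binding factor that restrains HIF, was lower by -0.35 (adjusted p = 0.0047), and Arnt, the partner subunit of HIF, by -0.18 (adjusted p = 0.026). Of 24 other hypoxia targets tested, 3 were higher and 5 lower. Ak4, a mitochondrial adenylate kinase, was higher by 1.17 (27.2 FPKM against 12.1, adjusted p = 6.3e-05), and Ero1a, an oxidase of the endoplasmic reticulum, by 0.46. Hmox1 (haem oxygenase) was lower by -0.69 and Ddit4, an mTORC1 inhibitor, by -0.54. Of 13 genes of pyruvate entry and pyruvate dehydrogenase, 4 were higher and 1 lower. Dld, the E3 subunit, was higher by 0.32, the phosphatase Pdp2 by 0.41 and the mitochondrial pyruvate carrier Mpc2 by 0.41, whereas Pdha1, the E1 alpha subunit, was lower by -0.24. Of 12 genes of gluconeogenesis and glycogen 3 were higher and 0 lower, and of 9 pentose phosphate genes 2 and 0. Of 6 genes of the branch to serine 1 was higher and 0 lower. The counts were 1 and 1 of 14 other glycolysis isoforms and 1 and 2 of 7 hexosamine genes. All of these are read against the 11% of genes called higher and 10.4% called lower. The ESC marker sum above and a sum of 7 neuron markers (114 to 122 FPKM in WT, 163 to 190.5 in KO) also differed at day 0. Of 8 ESC markers 4 were called higher and 2 lower. Of 6 neuron markers tested, 3 were called higher and 2 lay on the lower side. The neuron sum was smaller at day 14, at 13.6 to 21.6 in WT and 26.2 to 30.3 in KO. The part of either marker set in these results was not tested.

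Differentiation changed most members in both genotypes, and at several steps one related gene fell while another rose. In WT, 14 entries rose and 11 fell between day 0 and day 14, beside 29% of all genes that rose and 26.4% that fell. In KO, 12 rose and 17 fell, beside 33.5% and 29.8%. The median log2 change of the members was 0.01 in WT and -0.37 in KO, against 0.00 and 0.01 over all genes tested. Pgam1, Eno1 and Pkm, abundant enzymes of lower glycolysis, fell in both genotypes, while Slc2a1, Pfkfb3, P4ha1 and Vegfa rose severalfold. Fewer cells of a type and less RNA per cell cannot be told apart in these bulk samples.

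**Figure D2:**
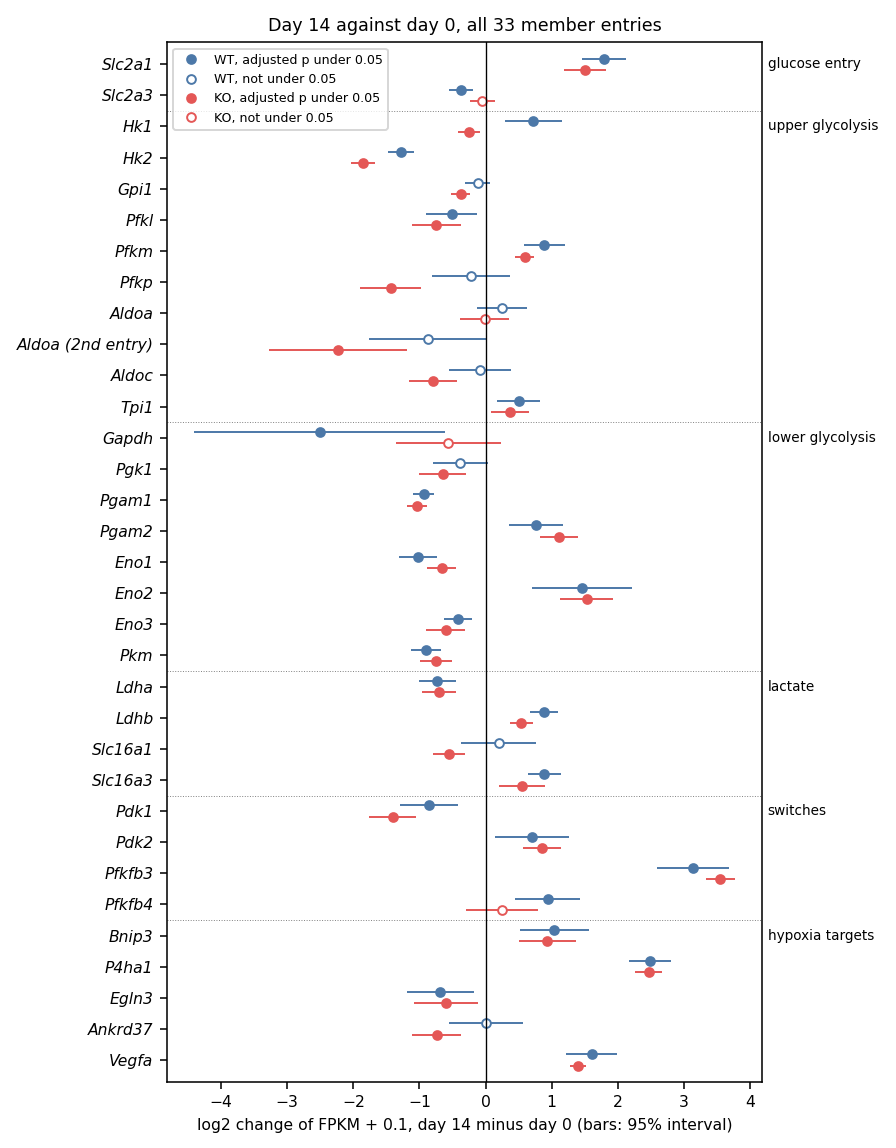
Change from day 0 to day 14 of the 33 entries in WT (blue) and KO (red), as a log2 difference with its 95% interval (x axis), grouped by role (y axis). Filled points had an adjusted p under 0.05. Pfkfb3 and P4ha1 lie farthest to the right in both genotypes, and Hk1 is the member called on opposite sides of 0.

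Pfkfb3, whose enzyme makes the activator of phosphofructokinase (chr2:11471433-11554077), rose most. It was at 3.44, 3.05 and 3.00 FPKM in WT at day 0 and 24.1, 22.9 and 41.9 at day 14, and at 2.88, 3.30 and 2.63 and then 36.0, 36.5 and 33.4 in KO. Every day 14 library lay far above every day 0 library. The rise was 3.13 ± 0.23 in WT (SE, adjusted p = 5.92e-05) and 3.55 ± 0.09 in KO (adjusted p = 4.52e-07). P4ha1 (chr10:59323296-59373304) went from 7.39, 6.92 and 7.64 to 35.2, 40.7 and 49.8 FPKM in WT and from 7.01, 7.06 and 7.82 to 43.5, 36.4 and 42.7 in KO. Its rises of 2.49 ± 0.13 and 2.47 ± 0.09 were close in size, with a difference between them of -0.02 and a 95% interval of -0.39 to 0.35. Slc2a1 rose to 382, 329.6 and 492 FPKM in WT and 447, 389 and 309 in KO, by 1.789 ± 0.142 and 1.505 ± 0.135. Vegfa rose to 29.2, 25.3 and 40.2 FPKM in WT and 33.8, 33.3 and 31.6 in KO, by 1.60 ± 0.16 and 1.40 ± 0.05. Bnip3 rose by 1.04 ± 0.22 in WT and 0.93 ± 0.18 in KO. Egln3 fell by 0.69 ± 0.21 in WT and 0.60 ± 0.20 in KO. Both Egln3 calls were fragile: that in WT was lost without any 1 of the day 0 libraries (adjusted p = 0.0108 to 0.103) and that in KO without any 1 library except day 14 replicate 3 (adjusted p = 0.00106 to 0.112).

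Several of the most abundant enzymes fell in both genotypes. Pgam1 (phosphoglycerate mutase of most tissues) went from a mean of 440.02 to 229.8 FPKM in WT and from 465 to 227 in KO, changes of -0.94 ± 0.07 and -1.04 ± 0.06 (SE). Eno1 fell from 372 to 185 FPKM in WT and from 273 to 173 in KO, Pkm from 624 to 335 and from 568 to 338, and Ldha from 438 to 266 and from 408 to 251. In each of these genes the day 14 libraries were all below the day 0 libraries in both genotypes. Hk2 fell from 42.4 to 17.4 FPKM in WT and from 46.8 to 12.9 in KO, by 1.28 ± 0.08 and 1.85 ± 0.08 on the log2 scale, and Pdk1 fell by 0.85 ± 0.19 and 1.41 ± 0.15. Their rarer relatives rose: Pgam2 (the muscle mutase) by 0.76 ± 0.17 in WT and 1.11 ± 0.12 in KO, Eno2 (the neuronal enolase) by 1.46 ± 0.32 and 1.53 ± 0.17, and Pdk2 by 0.70 ± 0.24 and 0.85 ± 0.12. Eno3, the muscle enolase, fell by 0.42 ± 0.09 and 0.60 ± 0.12, so not every rare relative rose. The WT calls of Eno3 and Slc2a3 were lost on the TPM scale. Aldoa, the main aldolase and the most abundant member at day 14, was not called in either genotype, at a mean of 495 and then 597 FPKM in WT and 513 and then 516 in KO. Without WT day 14 replicate 3 it was called in WT, at 0.43, and Slc16a1 at 0.49. Tpi1 (triose phosphate isomerase) rose by 0.50 ± 0.14 in WT and 0.37 ± 0.12 in KO. Its call was lost in WT without day 0 replicate 1 or 2 or day 14 replicate 1 (adjusted p = 0.000524 to 0.065), and in KO without day 0 replicate 1 or 3 (adjusted p = 0.025 to 0.0948). The WT call of Pdk2 was lost without any 1 of the WT day 0 libraries (adjusted p = 0.0298 to 0.118).

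Some members were called in 1 genotype only, which does not by itself show a difference between the genotypes. Gpi1, Pfkp, the second Aldoa entry, Aldoc, Pgk1, Slc16a1 and Ankrd37 fell in KO and were not called in WT, where their changes ran from -0.87 (the second Aldoa entry) to 0.20 (Slc16a1). Slc2a3 (-0.37 ± 0.08), Gapdh (-2.51 ± 0.80) and Pfkfb4 (0.94 ± 0.20) were called in WT and not in KO, where their changes were -0.05, -0.56 and 0.25. Without KO day 14 replicate 1, Gapdh was also called in KO, at -0.93. The WT call of Gapdh was lost without any 1 of the day 0 libraries or without day 14 replicate 1 (adjusted p = 0.0161 to 0.0996). Pfkl fell in both genotypes, by 0.51 ± 0.16 in WT and 0.74 ± 0.15 in KO, but its WT call was lost without any 1 of the WT day 0 libraries (adjusted p = 0.0113 to 0.107).

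The balance between related genes shifted with these changes, as shares of the summed FPKM of each family show. Ldha held 70.9% ± 1.0 (SD, n = 3) of Ldha plus Ldhb in WT at day 0 and 44.4% ± 5.5 at day 14, and 67.2% ± 0.3 and then 46.5% ± 2.7 in KO. Ldhb rose from 179 to 331 FPKM in WT and from 199 to 288 in KO, so that it was the larger of the pair in all 6 day 14 libraries. Slc2a1 went from 38.0% ± 0.5 to 73.3% ± 2.6 of the carriers in WT and from 49.9% ± 0.5 to 74.5% ± 2.1 in KO. Hk1 went from 12.02% ± 1.09 to 35.7% ± 6.8 of the hexokinases in WT and from 18.2% ± 0.8 to 40.4% ± 2.0 in KO. Among the phosphofructokinases the leading gene at day 0 was Pfkl in WT (48.5% ± 1.3), while in KO Pfkp (38.2% ± 0.2) was slightly above Pfkl (36.3% ± 0.4). At day 14 Pfkm led in both, at 49.6% ± 10.7 in WT and 51.8% ± 7.6 in KO. Pfkm itself rose by 0.89 ± 0.13 in WT and 0.59 ± 0.06 in KO (SE, log2). Slc16a3 (MCT4, the exporter of highly glycolytic cells) rose by 0.89 ± 0.105 in WT and 0.55 ± 0.15 in KO. It took 17.1% ± 1.6 and then 25.4% ± 7.0 of the MCT pair in WT and 15.7% ± 0.7 and then 28.7% ± 1.8 in KO.

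**Figure D3:**
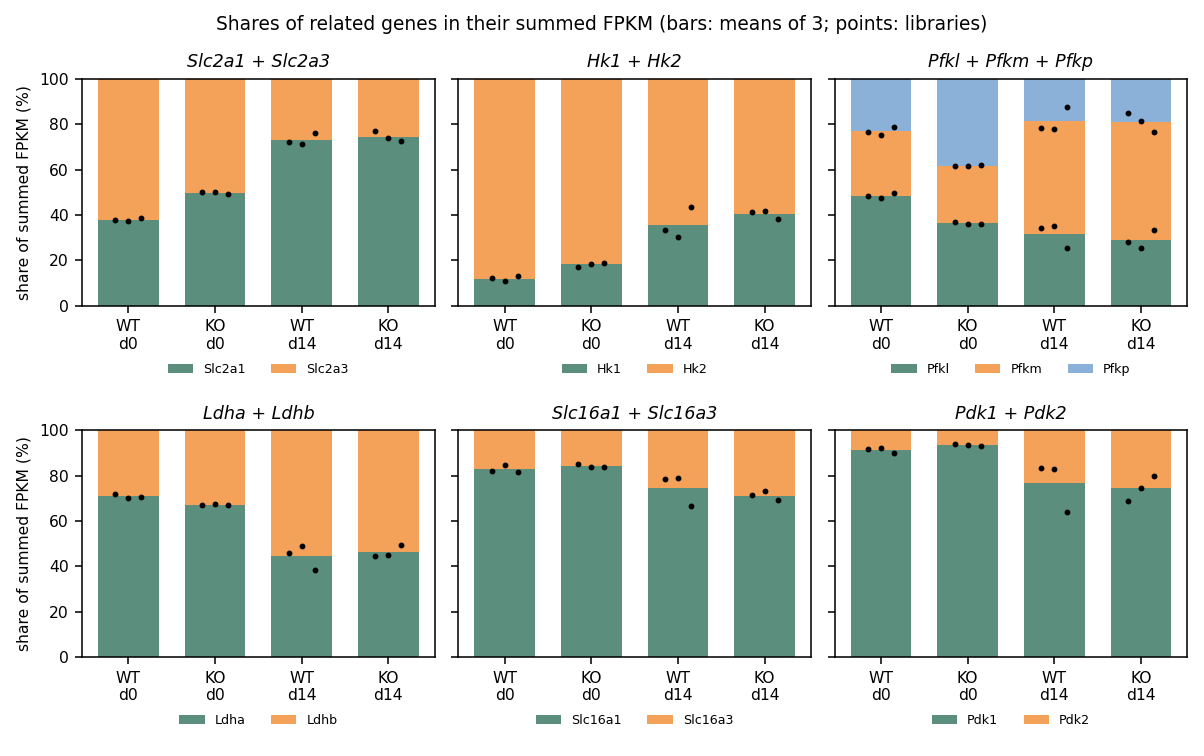
Share of each gene in the summed FPKM of its family (y axis, percent from 0 to 100) in the 4 groups (x axis). Bars are means of 3 libraries and points mark the cumulative share in each library. The Slc2a1 share rises from 38.0% to 73.3% in WT, and the Pfkp share at day 0 is 23.0% in WT and 38.2% in KO.

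Other genes of oxygen response and neighbouring routes also changed over the same interval. Of 25 other hypoxia targets tested, 18 rose and 4 fell in WT, and 16 rose and 5 fell in KO. These counts and those that follow stand beside 29% of all genes that rose and 26.4% that fell in WT, and 33.5% and 29.8% in KO. Anxa2 (annexin A2) went from 4.64 to 157 FPKM in WT and from 4.18 to 237 in KO. Ndrg1 and Bhlhe40 rose as well, by 4.18 and 1.57 in WT and by 3.46 and 2.38 in KO. Among 10 hypoxia regulators 6 rose and none fell in WT, while 6 rose and 2 fell in KO. Cited2 rose most, from 14.7 to 144 FPKM in WT and from 11.5 to 159 in KO. Hif1a, the oxygen-regulated subunit itself, rose by 0.61 in WT and 0.28 in KO. All 6 genes of the serine branch, which draws on 3-phosphoglycerate, fell in both genotypes. Psat1 went from 154 to 21.3 FPKM in WT and from 143 to 19.5 in KO, and Shmt2 from 72.1 to 17.9 and from 70.4 to 17.7.

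The windows before the annotated starts of some members that moved in these comparisons are shown because HIF is known to bind DNA at the letters ACGTG or GCGTG. RefSeq (GRCm38.p6) windows of 250 bases before to 50 bases after a start were matched by symbol for 31 of the 32 members, in 46 windows; Slc2a3 had none. Both motifs were searched on both strands, so CACGT and CACGC also count, and a CACGTG run counts as an ACGTG on each strand. Of the members' windows 50% held ACGTG, 54.3% GCGTG and 76.1% either, against 19.6%, 32.4% and 43.8% of all 32851 windows. These shares are a description, with no test, of members that were partly chosen as known HIF targets. The 250 bases before the start are given 5′ to 3′ on the gene's strand, with every motif letter in capitals. Pfkp and Egln3 are the members with the largest day 0 differences apart from Gapdh. Pfkfb3 (its downstream start) and P4ha1 rose most with differentiation. Ldha (its upstream start) is among those that fell, although Hk2 and Pgam1 fell more. The windows are Pfkp at chr13:6648772-6649021 (minus strand), Egln3 at chr12:54203875-54204124 (minus), Pfkfb3 at chr2:11502091-11502340 (minus), P4ha1 at chr10:59323046-59323295 (plus) and Ldha at chr7:46845554-46845803 (plus).
Pfkp: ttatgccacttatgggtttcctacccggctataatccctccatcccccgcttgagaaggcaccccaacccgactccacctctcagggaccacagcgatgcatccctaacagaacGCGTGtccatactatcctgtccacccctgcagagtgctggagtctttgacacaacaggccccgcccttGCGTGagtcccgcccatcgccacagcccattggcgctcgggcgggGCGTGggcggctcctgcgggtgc
Egln3: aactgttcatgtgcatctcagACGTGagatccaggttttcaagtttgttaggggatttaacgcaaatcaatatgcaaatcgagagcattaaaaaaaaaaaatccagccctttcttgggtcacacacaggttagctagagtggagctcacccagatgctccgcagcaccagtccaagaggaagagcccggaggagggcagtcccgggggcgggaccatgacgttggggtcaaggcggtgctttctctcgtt
Pfkfb3: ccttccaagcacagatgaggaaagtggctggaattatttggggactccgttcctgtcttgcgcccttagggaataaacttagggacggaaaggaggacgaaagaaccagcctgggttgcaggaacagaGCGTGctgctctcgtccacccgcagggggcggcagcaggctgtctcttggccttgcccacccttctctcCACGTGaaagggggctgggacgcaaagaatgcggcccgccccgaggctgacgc
P4ha1: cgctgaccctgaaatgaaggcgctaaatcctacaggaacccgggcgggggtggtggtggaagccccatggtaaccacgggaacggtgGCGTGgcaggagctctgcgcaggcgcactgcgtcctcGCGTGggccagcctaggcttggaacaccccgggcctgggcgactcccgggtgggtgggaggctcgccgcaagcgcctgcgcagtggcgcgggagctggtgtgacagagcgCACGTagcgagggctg
Ldha: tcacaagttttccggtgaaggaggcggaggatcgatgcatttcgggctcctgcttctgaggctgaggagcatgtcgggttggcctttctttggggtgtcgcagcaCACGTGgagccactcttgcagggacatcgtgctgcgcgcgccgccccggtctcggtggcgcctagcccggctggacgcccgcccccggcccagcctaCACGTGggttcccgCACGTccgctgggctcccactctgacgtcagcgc
Pfkp holds 3 GCGTG, which begin 136, 68 and 23 bases before the start, and Egln3 a single ACGTG 229 bases before it. Pfkfb3 has a CACGTG run that begins 53 bases before the start and a GCGTG at 122. P4ha1 has 3 matches at 163, 126 and 16 bases, and Ldha has CACGTG runs at 145 and 48 bases and a CACGT at 34. Pfkfb3 and Ldha each have another window, not printed, with a single match before the start and no CACGTG run: an ACGTG at 60 bases in Pfkfb3 and a CACGC at 59 in Ldha. The printed windows of these genes are thus the ones with more matches. Other members that moved had windows with neither motif. Eno2, Pgam2, Tpi1 and Gpi1 each had only such a window, and Hk1, Vegfa and Pkm each had such a window beside one with matches.

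At day 14 no member was called between KO and WT in the fit of that day's 6 libraries, although Egln3 kept nearly its day 0 size. Most values lay on the lower side in KO: 27 of the 33 differences were negative, with a median of -0.20 against 0.03 over all genes tested, and without WT replicate 3 they were 24 of 33 with the same median. The count of calls was 0 higher and 0 lower with limma at an adjusted p under 0.05, beside 1.45% of all genes higher and 0.883% lower. Without WT replicate 3, Pgam2 (0.72) and Pfkfb3 (0.58) were called higher and Hk2, Gapdh (-2.35), Slc16a1 and Egln3 lower. With library weights that let uneven libraries count less 2 members were higher and 15 lower. In a fit of all 4 groups, Pgam2 was called higher and Hk2, Slc16a1, Slc16a3 and Egln3 lower. Over all genes tested, these fits called 1804, 3517 and 1533 higher and 1025, 2531 and 1058 lower, in the order given. Leaving out any day 14 library other than WT replicate 3 called no member, with 16 to 52 genes higher and 28 to 42 lower.

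**Figure D4:**
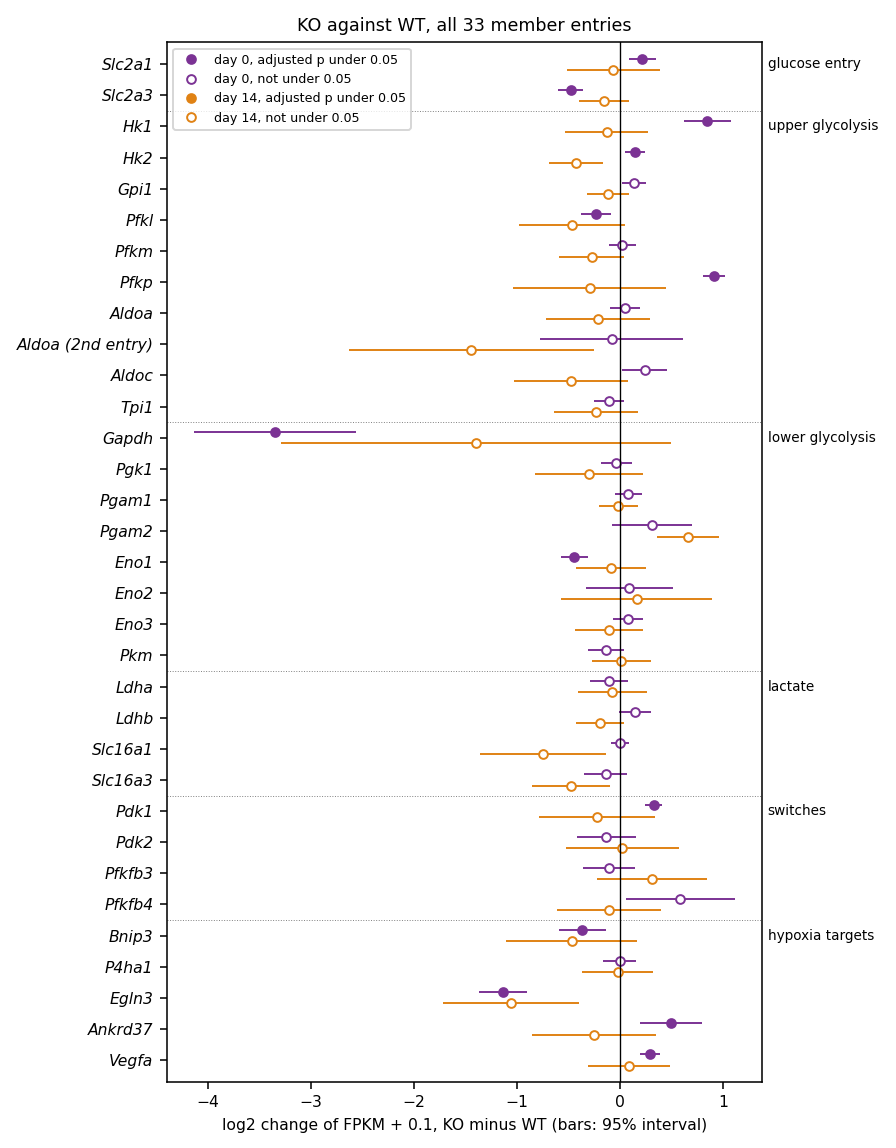
Difference between KO and WT of the 33 entries at day 0 (purple) and day 14 (orange), as a log2 difference with its 95% interval (x axis), grouped by role (y axis). Filled points had an adjusted p under 0.05. The day 14 intervals are wider, none of the day 14 points is filled, and Egln3 lies at -1.14 and -1.06.

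Egln3 was at 9.74, 10.6 and 6.05 FPKM in WT and 3.38, 3.49 and 5.67 in KO at day 14. Its KO libraries all lay below the WT libraries, though KO replicate 3 and WT replicate 3 nearly met. The difference was -1.06 ± 0.28 (SE, adjusted p = 0.104), close in size to that at day 0, and it was -1.30 without WT replicate 3. Over 16 alternative fits its adjusted p ran from 0.0043 (library weights) to 0.308, and 3 of them called it. Hk2 was at 18.8, 17.8 and 15.8 FPKM in WT and 11.7, 13.1 and 14.1 in KO, again without overlap. Its difference was -0.43 ± 0.11 (adjusted p = 0.101), and -0.50 without WT replicate 3, with 3 of 16 alternatives calling it (adjusted p = 0.00605 to 0.336). Slc16a1 was at 53.6, 60.8 and 30.7 FPKM in WT and 23.9, 27.2 and 32.1 in KO, so that WT replicate 3 fell inside the KO range. The difference of -0.75 ± 0.26 (adjusted p = 0.173) became -1.05 without it, and 3 of 16 alternatives called it (adjusted p = 0.00538 to 0.42). Pgam2 was at 4.29, 4.84 and 5.18 FPKM in WT and 8.26, 6.81 and 7.67 in KO. That difference of 0.66 ± 0.13 (adjusted p = 0.0516) was the one nearest to the threshold, and 4 of 16 alternatives called it (adjusted p = 0.00546 to 0.24). Slc16a3, at 14.8, 16.3 and 15.4 FPKM in WT and 9.63, 10.03 and 14.15 in KO, differed by -0.48 ± 0.16 (adjusted p = 0.162), and 2 of 16 alternatives called it (adjusted p = 0.0219 to 0.412).

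The members show how the third libraries of both genotypes stood. WT replicate 3 was below both other WT libraries for 19 of 33 entries and above both for 13, where 40.7% and 40.1% of all genes tested at day 14 lay below and above. For 16 entries it was below the other WT libraries while KO replicate 3 was above the other KO libraries, a pattern held by 24.3% of all genes. The opposite pattern was found for 7 entries and 21.6% of all genes. Pfkp is an example, at 12.2, 11.5 and 6.2 FPKM in WT and 5.98, 7.24 and 10.7 in KO. Bnip3 is another, at 24.1, 34.7 and 18.2 FPKM in WT and 15.4, 15.6 and 23.7 in KO. The median ratio of the highest to the lowest library of a group was 1.501 in WT and 1.341 in KO at day 14, against 1.105 and 1.13 at day 0.

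**Figure D5:**
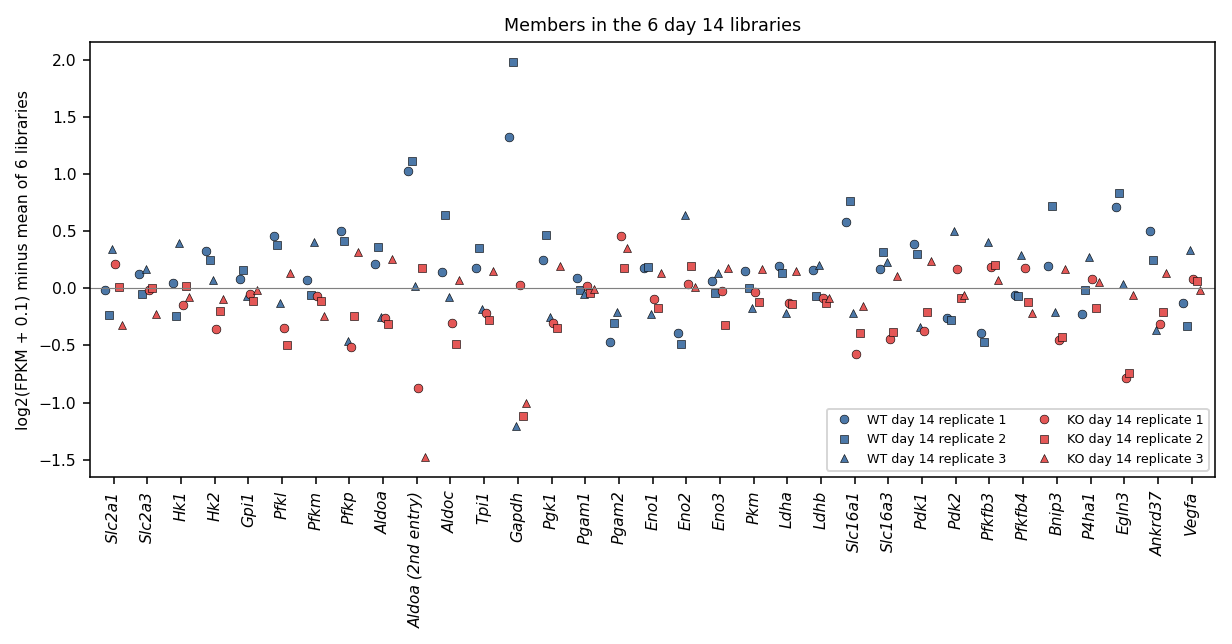
Each member in the 6 day 14 libraries: log2(FPKM + 0.1) minus the mean of the 6 (y axis), with WT in blue and KO in red and the symbol marking the replicate. WT replicate 3 lies below both other WT libraries for 19 of the 33 entries, as for Pfkp, Slc16a1 and Egln3, and above both for 13, as for Hk1, Eno2 and Pfkfb3.

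Summed markers of other cell types did not overlap between WT and KO at day 14, except the erythroid sums. The summed FPKM of 6 trophoblast markers was 81.5 to 110.5 in WT and 5.73 to 11.5 in KO, that of 6 yolk sac endoderm markers 4.65 to 28.9 and 0.881 to 1.31, and that of 5 endothelial markers 18.9 to 49.7 and 12.3 to 15.9. The yolk sac and endothelial sums of WT replicate 3 (4.65 and 18.9) lay nearest to KO, whereas its trophoblast sum of 86.4 lay within the range of the other WT libraries. The sum of 12 heart and striated muscle markers was 39.9 to 126 in WT and 234 to 322 in KO, with WT replicate 3 the highest of WT. That of 7 neuron markers was 13.6 to 21.6 in WT and 26.2 to 30.3 in KO, and that of 8 erythroid markers 3.31 to 11.8 and 3.02 to 7.61. The neuron sum was higher in the undifferentiated libraries (114 to 190.5 over both genotypes), so it cannot be read as a measure of neurons. Of the markers tested, 4 of 6 trophoblast, 1 of 6 yolk sac and 1 of 4 endothelial were called lower in KO. Those called higher were 1 of 11 heart and striated muscle and 1 of 5 neuron markers, and 0 of 7 erythroid markers were called. In each of these lists some marker went the other way. No marker of these lists was at 0 in every library, although Prl3d1, Prl2c2 and Tpbpa were at 0 in all day 0 libraries. The part of these cell types in the members' values was not tested. Of the genes around the members, none of 10 hypoxia regulators was called, and 1 of 24 other hypoxia targets was: Car12, a membrane carbonic anhydrase, lower at 0.24 against 1.32 FPKM (-1.96, adjusted p = 0.048). Psph, the last enzyme of serine synthesis, was higher at 13.2 against 6.14 FPKM (1.09, adjusted p = 0.0095), and Ldhc, the testis subunit of lactate dehydrogenase, at 6.65 against 2.97 (1.17, adjusted p = 0.048). They were the only calls among 6 genes of the serine branch and 13 other glycolysis isoforms. Also called higher were 1 of 9 pentose phosphate genes and 1 of 12 genes of gluconeogenesis and glycogen. Over all genes, 1.45% were higher and 0.883% lower.

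Whether the KO effect differed between the days was tested in a fit of all 12 libraries, which is the same as asking whether the change with differentiation differed between genotypes. None of the members differed in the higher direction and 2 in the lower, beside 4.22% of all genes higher and 2.91% lower. Hk1 was 0.84 higher in KO at day 0 and -0.13 at day 14 (0.03 without WT day 14 replicate 3), where WT was at 9.45, 7.73 and 12.1 FPKM and KO at 8.30, 9.31 and 8.68. The day 14 groups overlapped, unlike those of day 0. The difference between the effects was -0.97 ± 0.205 (SE, adjusted p = 0.0182): Hk1 rose with differentiation in WT by 0.72 ± 0.18 and fell in KO by 0.25 ± 0.07. Both of those calls were thin, since the rise was lost without WT day 0 replicate 2 (adjusted p = 0.00692 to 0.0509) and the fall without KO day 0 replicate 3 (adjusted p = 0.0159 to 0.0592). For Hk2 the difference between the effects was -0.57 ± 0.11 (adjusted p = 0.0141), from 0.14 at day 0 to -0.43 at day 14. Both members kept an adjusted p under 0.05 without any 1 library. Pfkp had the largest value among the other members with a KO effect at day 0 apart from Gapdh, at -1.21 ± 0.34, and did not pass (adjusted p = 0.0602). Without WT day 14 replicate 3, Slc2a3 (0.36) and Pfkfb3 (0.69) differed in the higher direction and 8 members in the lower, namely Hk1 (-0.81), Hk2 (-0.64), Gpi1 (-0.31), Pfkp (-1.51), Aldoc (-0.87), Slc16a1 (-1.05), Pdk1 (-0.78) and Ankrd37 (-0.99). In that fit, 2404 of all 22913 genes tested differed in the higher direction and 1968 in the lower. Leaving out any other library gave no member in the higher direction and 2 or 3 in the lower, with 510 to 761 genes higher and 352 to 570 lower. With all 12 libraries, Egln3 was not called for the difference, at 0.085 with a 95% interval of -0.615 to 0.785.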

How the data were processed

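Poly-A RNA-seq of 12 libraries was analysed. Per the labels and the study's methods, the authors aligned reads to mm10 with HISAT2 2.0.5, counted fragments with featureCounts 1.5.0-p3 and deposited FPKM per gene and library; DESeq2 also appears in the submitters' processing notes. How reads that match several places were counted is not given in the sources used here, nor is strand. From the deposited FPKM, log2(FPKM + 0.1) was fitted with limma 3.58.1 (trend; R 4.3.3) for genes at 0.1 FPKM or more in at least 3 libraries of a fit, with Benjamini-Hochberg adjustment over all genes tested and a call at an adjusted p under 0.05. Fragment numbers were recovered from FPKM (100% whole within 0.001), and no 2 of the libraries were identical (0 of 66 pairs). KO was compared with WT within each day, day 14 with day 0 within each genotype, and the KO effects between the days.

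The members and lists were chosen with earlier results of these data known. All members are described, those called between KO and WT or in the difference with every library, and from each other list at most the 4 called genes with the smallest adjusted p; Gapdh was always given. Exact permutation of 3 against 3 libraries cannot go below p = 0.1 and was not used. Alternatives were other pseudocounts and filters, TPM, median ratio scaling, voom on recovered fragments, a replicate block, library weights, all groups in one fit, a 2-fold threshold and each library left out. Sums over near-identical copies were added after seeing the data. The fitting code was tested on simulated data with the same spread for every gene and library of a comparison. That setting does not represent uneven libraries such as WT day 14 replicate 3.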

Additional observations from a re-analysis of the deposited data

Results flagged for a closer look

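The KO effect differed between day 0 and day 14 for 2 of the 33 member entries by the test of that difference, in the limma fit of all 12 libraries. For Hk1 the effect at day 14 minus that at day 0 was -0.97 on the log2 scale (SE 0.205, 95% interval -1.42 to -0.52, adjusted p = 0.0182), and the adjusted p ran from 0.00658 to 0.0494 with 1 library left out. For Hk2 it was -0.57 (SE 0.114, 95% interval -0.82 to -0.32, adjusted p = 0.0141), with a range of 0.00266 to 0.0441. Beside these, 4.22% of all genes differed in the higher direction and 2.91% in the lower. Groups of 3 libraries were too small for a test of single outlying libraries.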

How the results depend on the processing

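No member changed direction among its called values. Of 2967 alternative values of single members, 2763 had the same status as in the main fit, 133 lost a call and 71 gained one. Values called in neither fit count among those with the same status. The lost calls include those removed by the 2-fold threshold, which was applied to the main fit and refits nothing. Family shares were also taken with each library left out (264 values). That check cannot decide their stability, because a mean of 3 libraries always moves by less than their SD when 1 is dropped. At day 0, 7 members were higher and 6 lower. The higher count was 4 with no filter, 11 with voom, 2 with all 4 groups in one fit and 0 past a 2-fold threshold, and the lower count was 2 with TPM and 2 past that threshold; with 1 library left out both counts ran from 4 to 6. At day 14 (0 higher, 0 lower) there was 1 higher with a filter of 1 FPKM, 2 higher and 15 lower with library weights, 1 higher and 4 lower with all 4 groups in one fit, and 0 to 2 higher and 0 to 4 lower with 1 library left out. In WT over time (14 higher, 11 lower), 7 were lower with TPM, and 6 were higher and 3 lower past 2-fold; in KO (12 higher, 17 lower), 6 and 5 passed 2-fold. For the difference between KO effects (0 higher, 2 lower), TPM gave 5 lower, voom 5 lower, library weights 2 higher and 11 lower and the 2-fold threshold 0 lower, and 1 library left out gave 0 to 2 higher and 2 to 8 lower. TPM shifted the median of all genes by 0.11 at day 0, -0.14 at day 14, 0.21 in WT over time and -0.24 in the difference. It gave 1494 genes higher and 606 lower at day 0 against 2115 and 2003, 160 and 231 at day 14 against 298 and 181, 6552 and 3422 in WT over time against 5903 and 5370, and 286 and 848 in the difference against 966 and 667. Voom gave 525 and 830 in the difference and 227 and 310 at day 14. The day 14 counts over all genes were 132 and 88 with no filter, 3517 and 2531 with library weights and 1533 and 1058 with all 4 groups in one fit. The cause of these changes was not tested.

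Same-numbered libraries did not deviate together (r from -0.234 to 0.0217), and the main fits did not pair them. These correlations cannot show whether same-numbered libraries were prepared together. With a replicate block, 4 members were higher and 4 lower at day 0, 0 and 0 at day 14, 14 and 9 in WT over time, 11 and 17 in KO, and 0 and 2 in the difference; over all genes the day 14 counts were 2 and 11.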

Other observations

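Routes that branch from glycolysis also changed with differentiation. Of 12 tested genes of gluconeogenesis and glycogen, 9 rose and 1 fell in each genotype, beside 29% of all genes that rose and 26.4% that fell in WT, and 33.5% and 29.8% in KO. Gyg (glycogenin, the primer of glycogen) went from 4.81 to 13.1 FPKM in WT and from 4.45 to 18.6 in KO. Pygl (the liver glycogen phosphorylase) went from 0.291 to 4.68 FPKM in WT and from 0.394 to 2.11 in KO. The change differed between the genotypes for both, by 0.61 for Gyg (limma, adjusted p = 0.00393) and -1.36 for Pygl (adjusted p = 0.0456). In the hexosamine route, 3 of 7 genes rose and 2 fell in WT, and 2 rose and 2 fell in KO. Its rate-limiting enzyme has a pair of genes, of which Gfpt2 fell from 26.6 to 5.17 FPKM in WT and from 21.3 to 4.38 in KO, while Gfpt1 rose from 4.15 to 7.96 and from 4.68 to 6.64. In the pentose phosphate pathway, 2 of 9 genes rose and 3 fell in WT, and 3 rose and 1 fell in KO. Tkt (transketolase) fell from 68.4 to 36.9 FPKM in WT and from 66.5 to 39.8 in KO.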
